A study of Rattus norvegicus with 8 samples.

Results

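The metabotropic glutamate receptor genes Grm2, Grm3, Grm4, Grm5, Grm7 and Grm8 were examined in rat hippocampus. Members were all non-control array probes whose RefSeq accession maps to one of these 6 symbols, out of 12206 genes that could be named. They have 7 probes, 2 for Grm3 and 1 for each of the other genes, and all 7 were well above background on all 8 arrays. The study compared the hippocampi of 8 male Wistar rats on Agilent 1-colour arrays (Cy3 label), 1 array per rat. The 4 control rats ate the standard feed CE-2, and the 4 CCH rats ate CE-2 with 0.1% coral calcium hydride (CCH), studied for its effect on antioxidant ability. All rats entered at 6 weeks of age and were killed at 8 weeks, and the labels name no allele. Rats were grouped by title and treatment label. The free-text descriptions of the samples instead speak of a rat Parkinson model with lesions, saline and L-DOPA, which contradicts the titles.

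Metabotropic glutamate receptors are G protein-coupled receptors that bind glutamate in a large extracellular domain and act as dimers. The group I receptor mGlu5 (Grm5) couples to Gq and phospholipase C and lies mostly postsynaptically on hippocampal pyramidal neurons and also on astrocytes. The group II receptors mGlu2 (Grm2) and mGlu3 (Grm3) and the group III receptors mGlu4, mGlu7 and mGlu8 (Grm4, Grm7, Grm8) couple to Gi/o, lower cAMP and reduce transmitter release. In the hippocampus Grm2 is known from dentate granule cells and their mossy fibres, Grm3 from neurons and glia, and Grm7 from the active zones of terminals that contact certain interneurons.

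None of the 6 genes passed the test between the diets. Signals are given as log2 of the processed spot intensity minus the array's 75th percentile, so that 0 is the 75th percentile of that array. A probe was called at a Benjamini-Hochberg adjusted p under 0.05 in limma over all 31618 tested probes. By that rule 0.174% of all tested probes were called (55 probes; 0.0759% higher and 0.0980% lower in CCH), and 0 of the 7 receptor probes were. At an unadjusted limma p under 0.05, 1 of 7 receptor probes passed (Grm7), against 15.4% of all tested probes. Over the receptor probes 4 were higher and 3 lower in CCH, with a median log2 difference of 0.02. Of all tested probes 55.1% were higher in CCH, and their median was 0.03. The differences of Grm2, Grm3, Grm4 and Grm5 changed sign under other processing or with 1 array left out, as given with each gene.

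All 4 control arrays lay on slide 1 and all 4 CCH arrays on slide 2, scanned separately, so the effects of diet, slide and scan cannot be told apart. The 75th percentile of processed spot signals was 611 ± 61.0 (SD, n = 4) in controls and 732 ± 110 (SD, n = 4) in CCH (two-sided exact permutation p = 0.0857). On each array 76.3% to 79.9% of spots were well above background. Precision is limited by the 8 arrays. Of 15 listed markers of hippocampal pyramidal and granule neurons 13 were tested, among them Neurod6, Camk2a, Wfs1 and the dentate factor Prox1, and 9 were higher and 4 lower in CCH with 0 called. Marker levels of other cell types stood apart between the groups for 3 lists, by the mean log2 signal of each list, and overlapped for every other list. Astrocyte markers (4 higher, 7 lower) had means of 2.15 to 2.31 in controls and 2.14 to 2.33 in CCH. Interneuron markers (3 higher, 6 lower) had means of 1.41 to 1.56 in controls and 1.21 to 1.47 in CCH. Cerebellum markers (2 higher, 5 lower) had means of -2.64 to -0.98 in controls and -2.64 to -2.085 in CCH. Control replicate 3 stood highest for them, and the other controls lay between -2.64 and -2.19. For oligodendrocytes, with 11 of 12 markers higher in CCH, this mean was 2.33 to 2.56 in controls and 2.58 to 2.88 in CCH. The summed signal of these markers overlapped, at 269 to 325 times the 75th percentile in controls and 289 to 386 in CCH. For oligodendrocyte precursors, with 6 of 7 markers higher, the mean was 1.08 to 1.20 in controls and 1.29 to 1.54 in CCH (sums of 54.7 to 60.1 and 58.2 to 77.5). Microglia markers were lower in CCH for 11 of 14, with 1 called, and their mean was 0.92 to 1.06 in controls and 0.68 to 0.85 in CCH (sums of 65.0 to 71.5 and 53.0 to 66.1). All 12 tested markers of the choroid plexus and ependyma were lower, with overlapping groups (sums of 38.1 to 262 in controls, 4.14 to 194 in CCH), with the lowest sums on CCH replicates 2 and 4. The part of these differences in the receptor values was not tested. In bulk tissue, fewer cells of a type and less RNA per cell cannot be told apart.

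**Figure D1:**
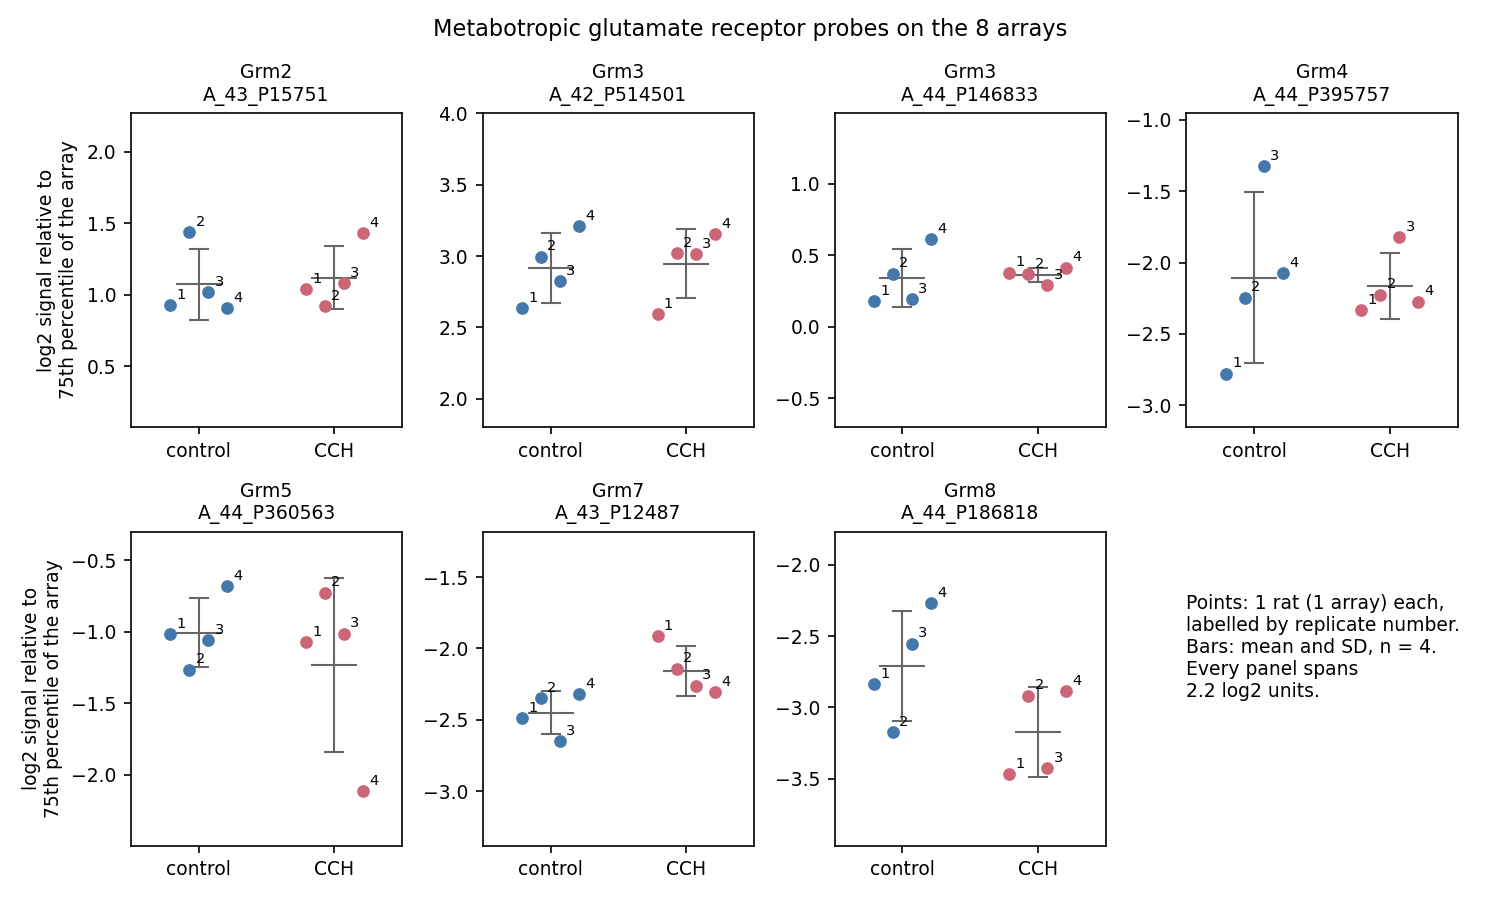
Log2 signal relative to the 75th percentile of the array (y axis) for each receptor probe in control and CCH rats (x axis). Points are single arrays with their replicate number, bars are the mean and SD of 4 arrays, and every panel spans the same range. The groups overlap for every probe except Grm7, where the lowest CCH array (-2.31) lies just above the highest control (-2.32), and CCH replicate 4 stands low for Grm5 at -2.11.

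Grm7 and Grm8, both group III receptors of presynaptic terminals, had the lowest p-values of the family and differed in opposite directions. The promoters of these genes are shown to give the regions upstream of them. They run from 250 bases before to 50 bases after the start in RefSeq's GRCr8 table, which held entries for 3 of the 6 members (Grm5, Grm7 and Grm8), and are written 5′ to 3′ on the gene's strand with motif matches in capitals. Grm7 is at chr4:145286476-145286775 (plus strand) and Grm8 at chr4:57687457-57687756 (minus strand).
Grm7: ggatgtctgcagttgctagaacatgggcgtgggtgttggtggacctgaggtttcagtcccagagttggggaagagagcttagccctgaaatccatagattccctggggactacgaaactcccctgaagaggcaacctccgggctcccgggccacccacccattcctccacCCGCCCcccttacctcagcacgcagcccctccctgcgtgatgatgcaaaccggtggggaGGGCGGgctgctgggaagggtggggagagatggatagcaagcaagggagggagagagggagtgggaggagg
Grm8: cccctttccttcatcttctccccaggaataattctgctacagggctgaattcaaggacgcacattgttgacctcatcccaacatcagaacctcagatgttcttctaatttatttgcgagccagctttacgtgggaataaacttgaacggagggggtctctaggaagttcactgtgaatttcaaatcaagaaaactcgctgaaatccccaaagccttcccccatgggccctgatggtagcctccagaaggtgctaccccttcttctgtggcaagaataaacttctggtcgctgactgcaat
Both strands were searched for the GC box GGGCGG, the cAMP response element half-site TGACG, the E-box CACGTG and the TATA motif TATAAA, of which only the GC box was found, 2 times in Grm7. Of all 33469 promoters listed, 33.1% hold a GC box, 21.2% the half-site, 6.4% the E-box and 14.2% the TATA motif. The GC content was 62.0% for Grm7, 47.3% for Grm8 and 37.3% for Grm5, which held 0 matches, and the median over all promoters was 51.7%. These matches describe the letters only, and the array data do not measure promoter activity.

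Grm7 (probe A_43_P12487, NM_031040), the presynaptic autoreceptor with the lowest glutamate affinity of its group, had the smallest p of the family. On control replicates 1 to 4 its log2 signals were -2.49, -2.35, -2.65 and -2.32. On CCH replicates 1 to 4 they were -1.92, -2.14, -2.26 and -2.31. All 4 CCH arrays lay above all 4 controls, but CCH replicate 4 exceeded control replicate 4 by only 0.017 on the log2 scale, and CCH replicate 1 stood highest. In all, 6.59% of tested probes had every CCH array above every control and 11.3% had groups apart in either direction. Group means were -2.45 ± 0.15 (SD, n = 4) and -2.16 ± 0.17 (SD, n = 4). The difference was 0.30 ± 0.12 (SE), or 1.23-fold with a 95% interval of 1.02 to 1.48 (limma adjusted p = 0.292). It was 0.12 with normexp background correction, where the groups overlapped, as they did when arrays were scaled to probes detected on all of them. The processed signals were 95.3 to 125 in controls and 130 to 234 in CCH, and the raw spot was 4.46 to 8.56 times its local background.

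Grm8 (probe A_44_P186818, NM_022202), a group III receptor of high glutamate affinity, had the largest difference by size. Its log2 signals were -2.84, -3.17, -2.55 and -2.27 on control replicates 1 to 4. They were -3.47, -2.92, -3.42 and -2.89 on CCH replicates 1 to 4. Control replicate 2 lay within the CCH range, so the groups overlapped. The control mean was -2.71 ± 0.39 (SD, n = 4) and the CCH mean -3.17 ± 0.31 (SD, n = 4). These means differed by -0.47 ± 0.22 (SE), or 0.724-fold with a 95% interval of 0.509 to 1.03 (limma adjusted p = 0.364). The difference kept its sign under the 19 alternatives, between -0.62 without control replicate 2 and -0.32 without control replicate 4. Of these, the detection filters, the eBayes trend and the replicate block leave it unchanged by construction. So does keeping outlier-marked spots, as the Grm8 spot had no mark, and the value table holds the same signals rounded. Grm8 had the dimmest receptor probe over its own background, at 2.65 to 4.48 times the local background.

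Grm4 (probe A_44_P395757, NM_022666), the third group III gene, varied more among control rats than between diets. Its log2 signals were -2.78, -2.25, -1.33 and -2.07 on control replicates 1 to 4 and -2.33, -2.22, -1.82 and -2.27 on CCH replicates 1 to 4. Control replicates 1 and 3 were the lowest and highest of all 8 arrays, and all CCH arrays lay between them. Means were -2.11 ± 0.60 (SD, n = 4) and -2.16 ± 0.23 (SD, n = 4). The difference was -0.06 ± 0.28 (SE, limma adjusted p = 0.950), or 0.962-fold with an interval of 0.616 to 1.5. It was 0.20 without control replicate 3 and -0.28 without control replicate 1. The within-group SD of 0.45 exceeded that of 88.5% of tested probes. Control replicate 3, the highest for Grm4, also had the highest mean log2 signal of the 7 tested cerebellum markers, at -0.98. The other arrays ranged from -2.64 to -2.085, with control replicate 1, the lowest for Grm4, at -2.19. The part of these markers in the Grm4 value was not tested.

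The error of a single spot was estimated from other probes. Among 263 probes printed at least 5 times, 67 had signals between 60 and 250, the range of Grm4, Grm7 and Grm8. The median spot-to-spot SD of those probes within an array was 0.08 on the log2 scale in controls and 0.07 in CCH, and the gap of 0.017 between the Grm7 groups is smaller than this. Grm4, Grm7 and Grm8 were each printed as 1 spot, so their own spot error was not measured.

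Grm5 (probe A_44_P360563, NM_017012), the Gq-coupled receptor of the family's group I, was the only member printed repeatedly, with 10 spots per array. Its log2 signals were -1.01, -1.26, -1.06 and -0.68 on control replicates 1 to 4. They were -1.07, -0.72, -1.01 and -2.11 on CCH replicates 1 to 4. CCH replicates 1 to 3 lay within the control range, and CCH replicate 4 lay below all 7 other arrays. Group means were -1.004 ± 0.24 (SD, n = 4) and -1.23 ± 0.61 (SD, n = 4). The difference was -0.23 ± 0.29 (SE, limma adjusted p = 0.758), or 0.855-fold with an interval of 0.544 to 1.34. Without CCH replicate 4 it was 0.068.

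The low Grm5 signal was present on every spot of CCH replicate 4. Its 10 spots read between 138 and 160 in processed signal, and the lowest Grm5 spot of any other array read 225 (control replicate 2). As a share of the array's 75th percentile Grm5 stood at 23.1% on CCH replicate 4 and at 41.6% to 62.4% on the other arrays. The spot-to-spot SD within an array was 0.03 to 0.09 on the log2 scale, while the SD between CCH rats was 0.61. On the same array 10 of the 13 tested pyramidal and granule neuron markers lay within the range of the other arrays. Cpne4 (3.15 against 3.43 to 4.09) and Spink8 (-3.30 against -3.27 to -1.57) were below it, and Wfs1 (2.56 against 1.40 to 2.55) was above it. Cpne4 was below every control on every CCH array (difference -0.60, limma adjusted p = 0.0721), and its other probe gave 0.04. The share of all probes outside the range of the other arrays was not computed for CCH replicate 4. The choroid plexus sum of this array was the lowest of all at 4.14. The part of these markers in the Grm5 value was not tested.

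**Figure D2:**
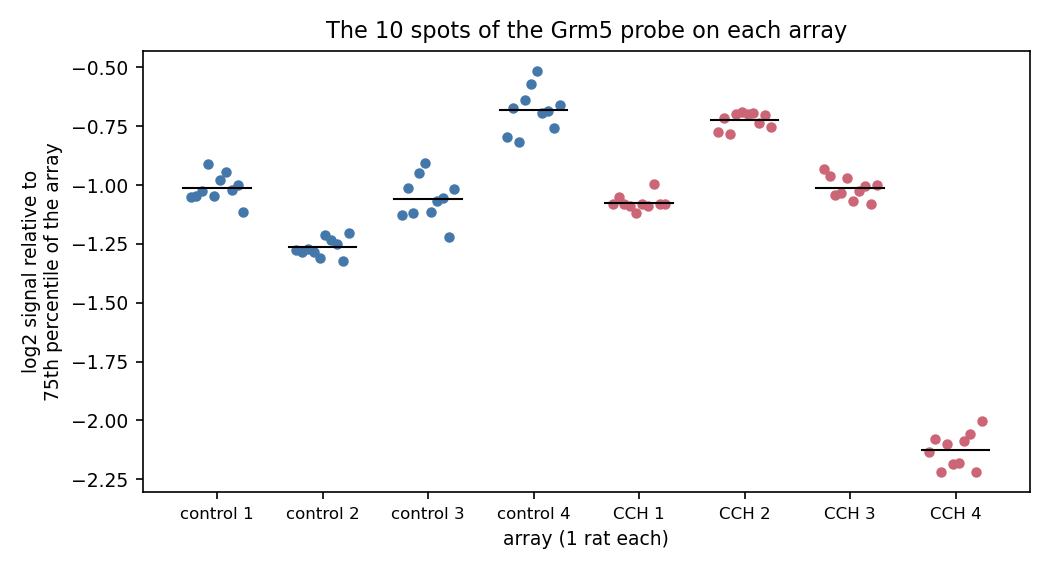
Log2 signal relative to the 75th percentile of the array (y axis) for each of the 10 spots of the Grm5 probe on each of the 8 arrays (x axis), with control arrays in blue, CCH arrays in red and a line at the mean. All spots of CCH replicate 4 lie below all spots of the other arrays, and spots of 1 array lie close together (SD 0.03 to 0.09).

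The group II receptors overlapped between the diets. Grm2 (probe A_43_P15751, NM_001105711), the presynaptic autoreceptor of mossy fibres, had log2 signals of 0.93, 1.44, 1.02 and 0.91 on control replicates 1 to 4. The CCH signals were 1.04, 0.92, 1.08 and 1.43 on replicates 1 to 4. One array in each group stood high, control replicate 2 and CCH replicate 4, and the other 6 lay between 0.91 and 1.08. These 2 arrays were also the ones with the lowest Grm5 signals. Of all pairs of receptor probes, Grm2 and Grm5 had the Pearson correlation largest in size after subtracting group means (-0.83, 8 arrays). The pair was named after the values were seen, and is given as a description. Grm2 means were 1.07 ± 0.25 (SD, n = 4) and 1.12 ± 0.22 (SD, n = 4). They differed by 0.05 ± 0.16 (SE, limma adjusted p = 0.924), a fold of 1.03 (interval 0.805 to 1.32). The difference was -0.059 without CCH replicate 4, -0.010 without control replicate 4, -0.0031 without control replicate 1 and 0.17 without control replicate 2.

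Grm3, which is found in neurons and glia and also responds to the neuropeptide N-acetylaspartylglutamate (NAAG), was read by 2 probes of accession NM_001105712. Probe A_42_P514501 stood at 2.64, 3.00, 2.83 and 3.21 on control replicates 1 to 4. In CCH it stood at 2.60, 3.02, 3.02 and 3.15. The lowest array in each group was replicate 1 and the highest replicate 4, and the groups overlapped almost fully. Its difference was 0.03 ± 0.16 (SE, limma adjusted p = 0.954; 1.02-fold, interval 0.790 to 1.32), at -0.0041 with quantile normalization, -0.063 without control replicate 1, -0.04 without CCH replicate 4 and 0.15 without CCH replicate 1. Probe A_44_P146833 stood at 0.18, 0.37, 0.19 and 0.61 in controls and 0.38, 0.37, 0.29 and 0.41 in CCH. All 4 CCH values lay inside the control range. Its difference was 0.02 ± 0.11 (SE, limma adjusted p = 0.946; 1.02-fold, interval 0.850 to 1.22), at -0.012 with normexp background correction, -0.029 without control replicate 1 and -0.02 without control replicate 3.

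The 2 Grm3 probes gave diet differences that did not differ beyond their spread. The first probe minus the second was 2.58 ± 0.08 (SD, n = 4) on the log2 scale for the control rats and 2.58 ± 0.25 (SD, n = 4) for the CCH rats. Between the diets it moved by 0.0060 (two-sided exact permutation p = 0.971, 1 pair compared, and the smallest p that 35 splits can give is 0.0286). The CCH spread came from replicate 1, where the probes were 2.22 apart against 2.66 to 2.74 on the other CCH arrays and 2.46 to 2.63 on the controls. Without CCH replicate 1 the difference was 0.13, with an exact permutation p of 0.0286, the smallest that the arrays left can give. This was 1 of 8 fits with 1 array left out, and it dropped the array that made the CCH spread. With other single arrays left out the difference ran from -0.046 to 0.024.

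**Figure D3:**
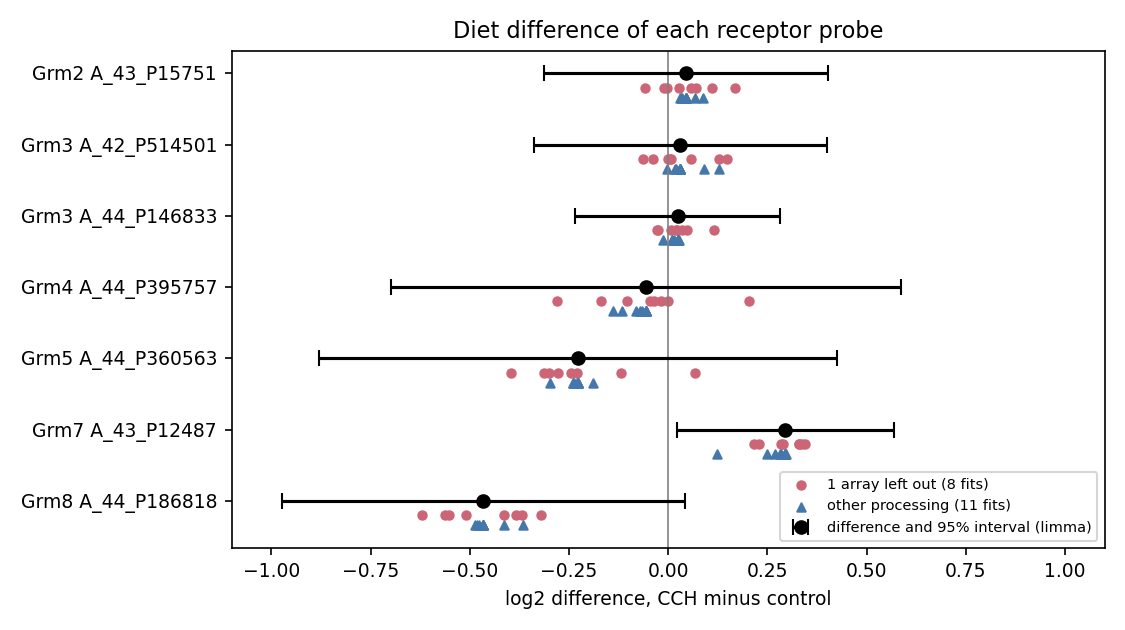
Log2 difference, CCH minus control (x axis), of each receptor probe (y axis). Black points and bars are the limma estimate and its 95% interval. Red points are the 8 fits with 1 array left out, and blue triangles the 11 fits with other processing. Only the Grm7 interval excludes 0, and the values for Grm7 and Grm8 keep their sign. The detection filters, the eBayes trend and the replicate block leave the estimates unchanged by construction. Keeping outlier-marked spots changes only Grm5, and the value table holds the same signals rounded.

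The signalling partners of these receptors, from 5 lists, also held no called gene by limma. Of 98 listed genes 84 were tested, with 53 higher and 31 lower in CCH, 0 called and a median log2 difference of 0.04. At an unadjusted p under 0.05, 7 were higher and 5 lower, and 5 had all CCH arrays above and 3 all below the controls. Over all tested probes 15.4% passed that p, and 6.59% and 4.70% were apart in these directions.

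Among 19 tested genes of the group I and Gq arm, which lead from mGlu5 to calcium release and diacylglycerol, 14 were higher and 5 lower, with a median of 0.07. The diacylglycerol kinase Dgkz differed by 0.39 ± 0.12 (SE, limma adjusted p = 0.185) and phospholipase C beta 1 (Plcb1), the main mGlu5 effector of forebrain neurons, by -0.44 ± 0.14 (SE, adjusted p = 0.185). Plcb1 was at 2.81, 3.26, 2.94 and 2.81 in controls and 2.39, 2.55, 2.75 and 2.39 in CCH, so the groups lay apart. Its other probe gave 0.11. The cation channel gene Trpc5 differed by 0.25, and by -0.034 with normexp. The G protein genes Gnaq and Gna11 were at 0.20 and 0.09.

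Among 20 tested genes of the Gi/o arm, through which the group II and III receptors act, 12 were higher and 8 lower, with a median of 0.03. The calcium-stimulated adenylyl cyclase gene Adcy1 had the lowest p of the arm at 0.40 ± 0.11 (SE, limma adjusted p = 0.150; 0.25 with normexp). Its control signals ran from -2.19 to -1.77 and its CCH signals from -1.60 to -1.42. Kcnj3, a subunit of the G protein-gated potassium channel, differed by -0.48 ± 0.14 (SE, adjusted p = 0.162). It stood at 0.39, 0.15, -0.10 and -0.06 in controls and -0.18, -0.40, -0.37 and -0.58 in CCH, with no overlap. The G protein beta subunit gene Gnb4 differed by 0.23 (0.11 with normexp), and the inhibitory alpha subunits Gnai1, Gnai2 and Gnai3 were at 0.03, 0.03 and -0.04. The alpha subunit gene Gnao1 was at -0.34 (limma adjusted p = 0.302), and at -0.25 on its other probe. Adcy8 was at -0.31 (limma adjusted p = 0.290). At an unadjusted limma p under 0.05, 2 genes of the arm were higher and 3 lower in CCH.

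Among 23 tested scaffolds and partners 16 were higher and 7 lower, with a median of 0.05. Shank3, a postsynaptic scaffold that binds the Homer proteins anchoring mGlu5, differed by 0.37 ± 0.11 (SE, limma adjusted p = 0.171), with controls from 2.45 to 2.77 and CCH from 2.78 to 3.06, a gap of only 0.0020. The ubiquitin ligase gene Siah1, whose protein binds group I receptors, differed by 0.22 (a gap between groups of 0.0052) and Shank2 by 0.30 (-0.11 on its other probe). Homer1 was at -0.05, Homer2 at 0.04 and Homer3 at 0.40 (adjusted p = 0.354). Pick1, which binds the tail of mGlu7, was at 0.15, and Elfn1, a postsynaptic partner that recruits group III receptors across the cleft, at -0.16.

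Among 11 tested desensitisation genes 7 were higher and 4 lower, with a median of 0.11. Rgs14, a regulator of Gi/o signalling known from CA2 neurons, differed by 0.39 ± 0.14 (SE, limma adjusted p = 0.253), with the lowest CCH array only 0.0030 above the highest control on the log2 scale. The arrestin gene Arrb1 differed by 0.24 (0.11 with normexp) and Rgs8 by 0.27 (0.17 without control replicate 1).

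Among 11 tested genes of NAAG and glutamate handling 4 were higher and 7 lower, with a median of -0.07. The vesicular glutamate transporter gene Slc17a8 (VGLUT3) had the lowest p of all pathway lists at -0.61 ± 0.15 (SE, limma adjusted p = 0.108). It stood at -3.63, -4.13, -3.54 and -3.94 in controls and -4.55, -4.51, -4.35 and -4.27 in CCH, with no overlap. It was -0.35 with normexp and passed with array weights only (adjusted p = 0.0484, in a range of 0.0484 to 0.259). Slc17a6 (VGLUT2) differed by 0.50 ± 0.20 (SE, adjusted p = 0.279), at 0.31 with array weights. Slc17a7 (VGLUT1) differed by 0.15 (0.10 without CCH replicate 1). Folh1, which encodes the peptidase that cleaves NAAG, the peptide agonist of mGlu3, was at -0.12.

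**Figure D4:**
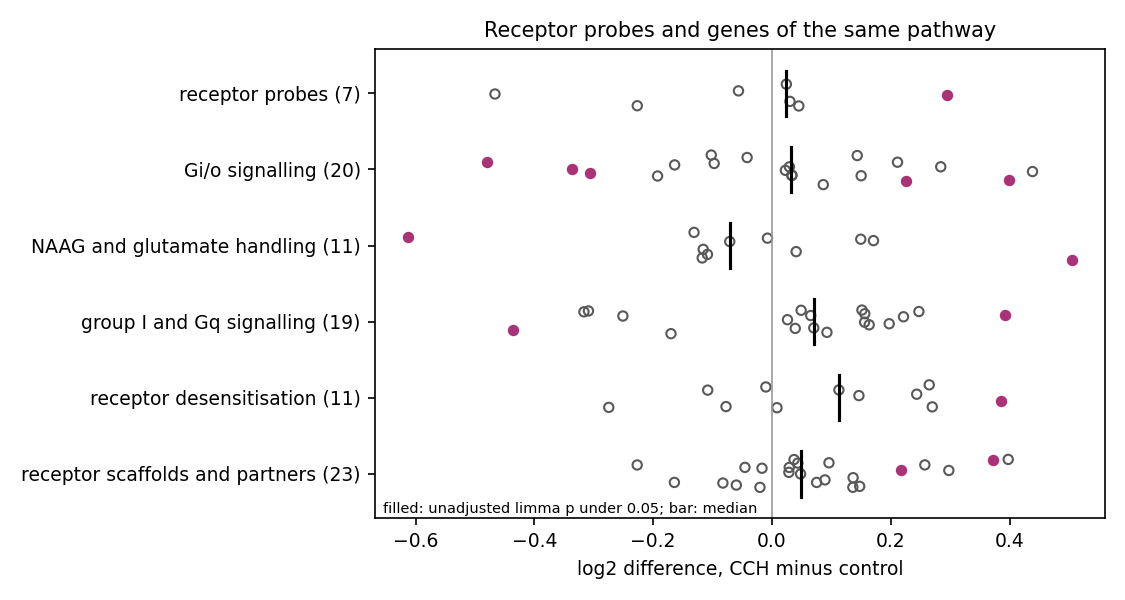
Log2 difference, CCH minus control (x axis), of the 7 receptor probes and of 84 genes in 5 pathway lists (y axis, number tested in parentheses). Filled points have an unadjusted limma p under 0.05 and bars are medians; the medians lie between -0.07 and 0.11, and no point passed after adjustment.

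The genes whose pattern across rats was most like each receptor were taken over 9713 named genes measured on all 8 arrays, by Pearson correlation after subtracting each group's mean. For Grm5 they were Zdhhc17 (0.95), Trim36 (0.92) and Ptpn22 (0.91), and for Grm7 Mmp15 (0.98), Slitrk1 (0.98) and Mrpl16 (0.97). For Grm8 they were Nat8b (0.97), Psip1 (0.96) and Tmem196 (0.96), and for Grm4 Lin54 (0.98), Gps2 (0.96) and Irf3 (0.96). For Grm2 they were Gtf3a (1.00), Necap1 (0.97) and Faap24 (0.96), and for the brighter Grm3 probe Mrps18a (0.99), Slc9a5 (0.98) and Zranb2 (0.98). These values are the highest of 9713 over 8 arrays that share 2 slides, and are given as a description. They describe deviations within groups only. With the group means kept in, the correlation was 0.00057 for Nat8b with Grm8 and 0.080 for Slitrk1 with Grm7. It was 0.96 for Gtf3a with Grm2 and 0.98 for Zranb2 with Grm3.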

How the data were processed

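Per the file headers, the authors extracted Cy3 spot intensity with Agilent Feature Extraction (version 9.5 per the submitters' processing notes), as its processed signal; further steps are not given in the sources used here. The 75th percentile differs between arrays, so the arrays had not been scaled to it. The deposited value table holds the same signals rounded to 3 significant digits, so it is no independent source. RefSeq accessions named 15184 of 41012 probes (37.0%) through a GRCr8 table. The array grid uses another build, so no probe coordinates are given.

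From each log2 processed signal the 75th percentile of the array's 43379 non-control spots was subtracted. Repeated spots were averaged per probe, after spots with outlier marks (55 to 122 per array) were set to missing. Probes well above background (repeated probes: on at least 50% of spots) on at least 4 of 8 arrays, with at least 3 values per group, were tested with limma 3.58.1 (R 4.3.3; two-sided lmFit and eBayes fit, Benjamini-Hochberg over all tested probes, threshold 0.05). The fit was tested on simulated data. The receptor genes and all lists were chosen with earlier results of these data known. Of each pathway list, 1 probe per gene (the brightest), the 3 genes with the smallest p were named, and other pathway and marker genes were named after their values were seen. Normexp (offset 50) used the median spot signal, since the planned mean signal was not a column of the files. Other alternatives were quantile, median and detected-probe scaling, 2 detection filters, kept outlier spots, eBayes trend, array weights, a replicate block, the value table and leaving out each array. Other members of the receptor family were not analysed here.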

Additional observations from a re-analysis of the deposited data

Results flagged for a closer look

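In groups of 4 arrays, no receptor probe had an array whose gap to the nearest other array, as a share of the group's range, exceeded Dixon's critical value. Among the named pathway genes 4 did, in 44 groups checked with the receptors, and chance gives about 1 in 20. Gnb4 was low on CCH replicate 3 (-2.68 against -2.47 to -2.44; 0.882 of the range). Rgs8 was low on control replicate 1 (-1.93 against -1.57 to -1.50; 0.832). Shank3 was high on control replicate 2 (2.77 against 2.45 to 2.49; 0.879), and Siah1 was low on control replicate 3 (0.41 against 0.50 to 0.51; 0.875).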

How the results depend on the processing

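No receptor probe was called under any of the 19 alternatives run (limma adjusted p from 0.179 to 0.9997), and 0 to 2 of the 7 had an unadjusted p under 0.05. Grm7 and Grm8 kept their sign in all 19, at 0.12 to 0.34 and -0.62 to -0.32. The detection filters, the eBayes trend and the replicate block leave a receptor difference unchanged by construction, so its sign could not change there. Among the receptor probes, keeping outlier-marked spots changed only Grm5, and the value table holds the same signals rounded. Grm3 reversed to -0.012 with normexp on probe A_44_P146833 and to -0.0041 with quantile normalization on probe A_42_P514501, where the Grm3 probe pair reversed to -0.013. With normexp Trpc5 reversed to -0.034. With 1 array left out, Grm2 ran from -0.059 to 0.17, the Grm3 probes from -0.063 to 0.15 and from -0.029 to 0.12, Grm4 from -0.28 to 0.20, Grm5 from -0.40 to 0.068 and the Grm3 pair from -0.046 to 0.13. The count of called probes over the whole array moved from 55 to 246 with normexp, 29 without a detection filter, 209 with detection on all 8 arrays, 215 with the eBayes trend setting and 1339 with array weights. Of the calls 43.6% were higher in CCH, against 28.0% with normexp, 34.5% without a filter, 55.5% with array weights and 57.5% without CCH replicate 1. With 1 array left out the count ran from 0 to 729, the highest without CCH replicate 1. With the replicate number as a block it was 0, with 4966 at an unadjusted limma p under 0.05. Same-numbered arrays correlated at 0.145, 0.0797, -0.00521 and 0.246 in their deviations from the group means. Control replicates 1 and 4, but not 2 and 3, correlated best with the CCH array of their own number. Of the CCH arrays, only replicate 2 correlated best with the control of its own number. The numbers were not taken to pair rats. The causes of these moves were not tested. The slide block could not be fitted, because slide equals diet.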
